A study of Homo sapiens with 8 samples.

Results

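The mitophagy genes examined were PINK1, BNIP3, BNIP3L, FUNDC1, FKBP8, BCL2L13, PHB2, USP30 and MUL1. They were taken by symbol from the deposited table, which holds 61806 genes, and all 9 of them were among the 14893 genes that held enough reads to be tested. N/TERT cells, wild-type epidermal keratinocytes of the N/TERT-1 line immortalized with telomerase, were treated with ethanol or with oligomycin and antimycin A (O/A). Oligomycin inhibits the ATP synthase and antimycin A the respiratory complex that passes electrons to cytochrome c, and together they depolarize mitochondria. Each condition had 4 mRNA-seq libraries from independent experiments. The treatment lasted 4 hours as the study describes it, while the labels give no time and no dose. Ethanol is the vehicle, so each comparison below is of O/A in vehicle against vehicle alone.

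Mitophagy is the removal of mitochondria by autophagy. In the ubiquitin-dependent pathway, the kinase PINK1 is imported and degraded in healthy mitochondria but is retained on the outer membrane of depolarized ones, where it phosphorylates ubiquitin. Ubiquitin chains on the mitochondrion are then bound by adaptors that also bind ATG8 proteins of the autophagosome. In receptor mitophagy, proteins of the mitochondrial membranes such as BNIP3, BNIP3L (also called NIX), FUNDC1, FKBP8 and BCL2L13 bind ATG8 proteins themselves. PHB2 is an inner-membrane receptor, USP30 is a deubiquitinase of the outer membrane, and MUL1 is an outer-membrane ubiquitin ligase. Much of this pathway is controlled at the level of protein, by import, cleavage, phosphorylation and ubiquitin, which mRNA counts do not measure.

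Between 17210404 and 20999927 reads per library were counted on genes. No pair of libraries of one condition was as alike as resampling of one library would give, and libraries of different conditions differed far more (chi-square per degree of freedom 1.76 to 5.74 within a condition and 52.9 to 64.0 between conditions). The 10 keratinocyte markers examined were all expressed, with a summed FPKM (fragments per kilobase of exon, scaled to the size of the library) of 5550 to 5850 in ethanol and 4950 to 5140 in O/A. The summed FPKM of markers of fibroblasts, melanocytes, immune cells and endothelial cells did not exceed 2.95 in any library, and COL1A2, MLANA, TYR and PTPRC were at 0 in every library.

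Each of the 9 genes was expressed in every library, and the mRNA of none of them passed both thresholds used to call a gene changed, which were an adjusted p-value no higher than 0.05 and an absolute log2 fold change above 0.25. Of all genes tested, 34.7% passed both, 15.8% of them higher in O/A and 18.9% lower (as shares of all genes tested). DESeq2 also called 0 of the 9, and 4 of them had an unadjusted p-value under 0.05 in edgeR (PINK1, BNIP3, FKBP8 and BCL2L13), as did 57.9% of all genes tested. The differences of the 9 genes were small, with log2 fold changes of O/A over ethanol between -0.13 for BNIP3 and 0.12 for PINK1. The median absolute log2 fold change was 0.0654 over the 9 genes and 0.205 over all genes tested, and 65.8% of all genes tested differed by more than the 9 genes did at most. Of the 9 genes, 5 had a positive and 4 a negative log2 fold change, with a median of 0.018, beside -0.0004 over all genes tested. Adjusted p-values come from the quasi-likelihood test of edgeR, adjusted by Benjamini-Hochberg over every gene tested, and 95% intervals come from the same fit. In bulk RNA, a lower level per cell and fewer cells that express a gene cannot be told apart.

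**Figure D1:**
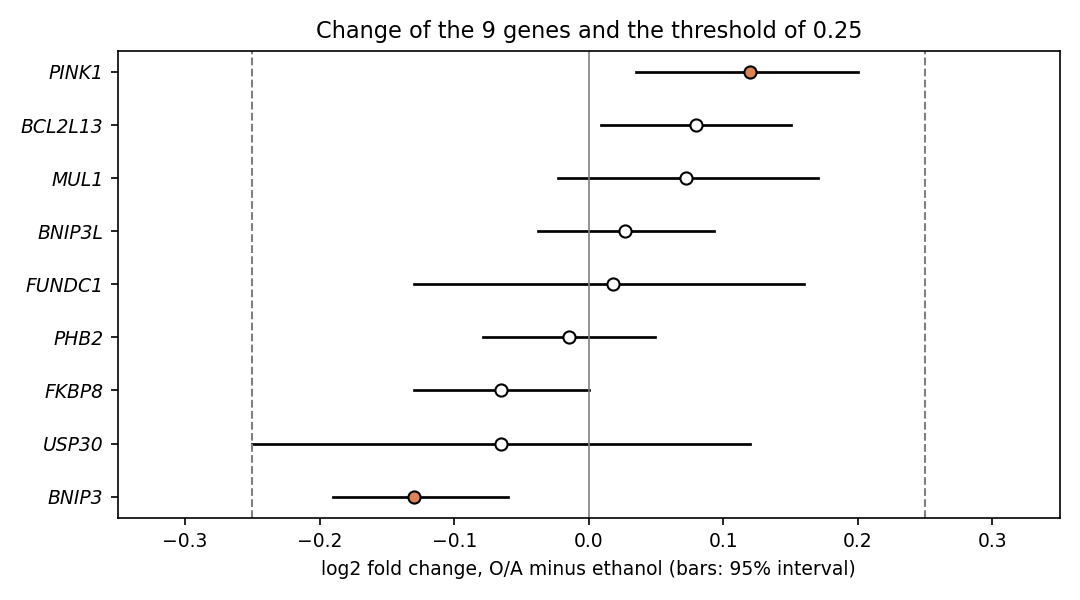
Log2 fold change of O/A over ethanol for each of the 9 genes (points) with its 95% interval (bars), from 4 libraries per condition. Dashed lines mark the threshold of 0.25 in either direction, and orange points mark PINK1 and BNIP3, whose adjusted p-value passed 0.05. Every point lies between the dashed lines, and the interval of USP30 ends at the lower one.

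The precision of the libraries bounded these differences. The 95% intervals of all 9 genes lay within 0.25 in either direction, as did those of 29.4% of all genes tested. USP30, the gene with the fewest reads, had an interval from -0.25 to 0.12, which ended at the threshold, and in 6 of the 12 alternative analyses that give it an interval it went past the threshold, down to -0.32 when O/A replicate 1 was left out. The intervals of the other 8 genes stayed within the threshold in all 13 that give them one. For these genes a change of the size needed to pass the threshold was therefore outside the interval, whereas some smaller changes lay inside it.

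By FPKM, the only scale here on which different genes can be compared, the order of the 9 genes was the same in both conditions. FKBP8 stood highest at 46.0 ± 1.96 in ethanol and 42.6 ± 1.10 in O/A (mean ± SD, n = 4), followed by PHB2, BNIP3L, BNIP3, MUL1, FUNDC1, BCL2L13, PINK1 and USP30, which stood lowest at 1.98 ± 0.176 and 1.84 ± 0.177. In ethanol the ranges of neighbours in this order overlapped only for BCL2L13 (10.76 to 11.54) and PINK1 (10.08 to 10.8). In O/A they overlapped for that pair and also for BNIP3 (21.35 to 22.61) and MUL1 (18.34 to 21.69). The receptors BNIP3L and BNIP3 were thus expressed above PINK1 in both conditions.

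**Figure D2:**
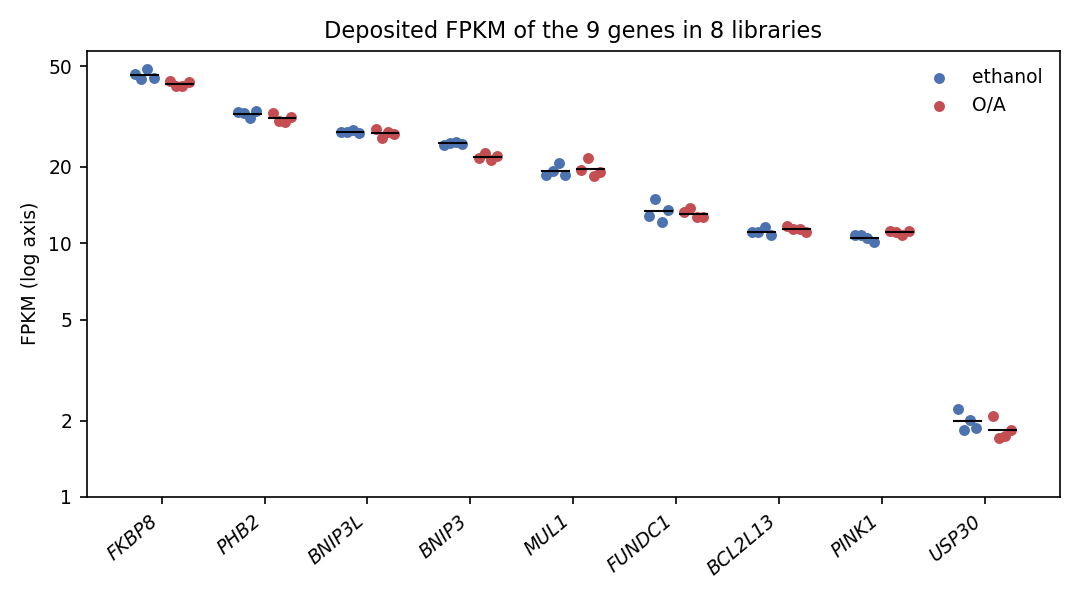
Deposited FPKM (log axis) of the 9 genes in the 4 ethanol (blue) and 4 O/A (red) libraries, ordered by the mean in ethanol, with a line at the mean of each condition. FKBP8 is highest at 46.0 in ethanol and USP30 lowest at 1.98, and the points of each gene in O/A lie close to those in ethanol.

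PINK1 lies on chromosome 1 from 20633458 to 20651511 on the forward strand (GRCh38.p13, as deposited). In the ethanol libraries its level was 51.7, 51.2, 49.5 and 48.1 CPM (counts scaled by TMM to a common library size), and in the O/A libraries it was 55.0, 54.4, 53.1 and 55.1. Every O/A library stood above every ethanol library on this scale. The log2 fold change was 0.12 (standard error 0.0418, 95% interval 0.035 to 0.20, adjusted p = 0.0136), and the exact permutation test, two-sided, gave p = 0.0286, the smallest that 70 relabellings of 4 against 4 libraries allow. The level in O/A was 8.64% higher. This difference depended on how libraries were scaled, and on the deposited FPKM the libraries overlapped, with 10.08 to 10.8 in ethanol and 10.78 to 11.19 in O/A. When library totals were used without TMM factors, its log2 fold change was 0.074 with an adjusted p-value of 0.136. TMM raised log2 fold changes by a median of 0.0455 over all genes relative to library totals.

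PINK1-AS, a gene on the opposite strand, shares 8855 bases of its span with PINK1. It held 202 to 273 reads per library, 24.3% of the reads of PINK1, and its log2 fold change was -0.053 (adjusted p = 0.595). Whether reads were counted by strand is not given in the sources used here. Reads from PINK1 and its antisense partner may therefore not be told apart, and the level of PINK1 is uncertain to that extent.

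USP30 and MUL1 act on mitochondrial ubiquitin from opposite sides. USP30 (chromosome 12 from 109023089 to 109088023, forward strand) had 11.3, 9.25, 10.1 and 9.5 CPM in ethanol and 10.9, 8.84, 9.05 and 9.65 CPM in O/A. The conditions overlapped, and the log2 fold change was -0.065 (standard error 0.0919, adjusted p = 0.582). With 164 to 210 reads per library it was the least precisely measured of the 9 genes, and the spread between libraries within a condition (a coefficient of variation of 9.16% in ethanol and 9.77% in O/A) was near the 7.43% that counting alone gives. MUL1 (chromosome 1 from 20499448 to 20508151, reverse strand) had 44.7 to 49.3 CPM in ethanol and 45.4 to 53.4 CPM in O/A, with a log2 fold change of 0.072 (95% interval -0.023 to 0.17, adjusted p = 0.203). The ratio of PINK1 to USP30 reads within a library, which needs no scaling between libraries, was 4.57, 5.53, 4.88 and 5.06 in ethanol and 5.04, 6.16, 5.87 and 5.70 in O/A. These ratios overlapped between conditions, with a log2 difference of 0.18 (exact permutation test, two-sided, p = 0.0857, also 0.0857 after adjustment over 3 ratios).

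BNIP3 and BNIP3L are paralogues, both outer-membrane receptors that bind ATG8 proteins through a motif in their cytosolic part, and both are known as genes that HIF-1 induces in hypoxia. BNIP3 lies on chromosome 10 from 131967684 to 131981967 on the reverse strand. Since BNIP3 is the member with the largest difference and a known HIF-1 target, the sequence before its start is shown. The 206 bases directly before the deposited start of the gene (chr10:131981968-131982173, reverse strand, RefSeq, GRCh38.p14), written 5′ to 3′ with CACGTG in capitals, are as follows.
BNIP3: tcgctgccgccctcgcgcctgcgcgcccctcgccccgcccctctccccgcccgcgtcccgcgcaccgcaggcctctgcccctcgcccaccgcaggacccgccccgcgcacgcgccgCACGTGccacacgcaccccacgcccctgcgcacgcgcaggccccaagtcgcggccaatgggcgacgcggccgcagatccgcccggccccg

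The capitals begin 90 bases before the deposited start and hold ACGTG, the core letters of the hypoxia response element, on both strands, since CACGTG reads the same on each. CACGTG is also the core of the E-box bound by other factors. Searched on both strands in the 250 bases before each RefSeq start, ACGTG was found in 18.5% of 35116 windows of the genome, CACGTG in 6.34% and TGATGCAA, the composite element of ATF4 and C/EBP factors, in 0.772%. Of the 9 genes, 6 had such windows. PINK1, BNIP3L and FKBP8 had no window, so whether these letters precede them was not examined. ACGTG was found in those of BNIP3 and USP30, CACGTG only in that of BNIP3, and TGATGCAA in none of the 6. A gene counted where any of its windows held the letters, whereas the shares of the genome are of single windows. A match is a run of letters and does not show binding.

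BNIP3 was lower in O/A. Its level was 97.9, 99.2, 99.8 and 98.3 CPM in ethanol and 89.6, 92.8, 88.2 and 91.2 CPM in O/A. The conditions did not overlap, on CPM or on FPKM, where the means were 24.7 ± 0.321 in ethanol and 21.9 ± 0.538 in O/A (SD, n = 4). The log2 fold change was -0.13 (standard error 0.0334, 95% interval -0.19 to -0.06, adjusted p = 0.00107), a level that decreased by 8.44%, with p = 0.0286 in the exact permutation test. It passed the adjusted p-value in all 17 alternative analyses, with log2 fold changes from -0.17 to -0.11, and never the fold change threshold.

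BNIP3L (chromosome 8 from 26383054 to 26505636, forward strand) was measured with similar precision, and its values overlapped between conditions. Its level was 113, 112, 114 and 111 CPM in ethanol and 120, 109, 116 and 114 CPM in O/A. The O/A libraries lay on both sides of the ethanol libraries. The log2 fold change was 0.027 (standard error 0.0324, 95% interval -0.038 to 0.093, adjusted p = 0.503), and it was negative under quantile normalization, with library totals and on FPKM and positive under median-ratio scaling.

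The paralogues were compared within libraries. There were 0.869, 0.885, 0.877 and 0.882 reads of BNIP3 per read of BNIP3L in ethanol, and 0.749, 0.850, 0.762 and 0.800 in O/A. Every O/A library was below every ethanol library, and O/A libraries differed more among themselves. The difference of the log2 ratio was -0.15 (from -0.19 ± 0.012 to -0.34 ± 0.0815, SD, n = 4), with p = 0.0286 in the exact permutation test and 0.0429 after adjustment over 3 ratios. Without any one of the ethanol libraries the adjusted p-value of this exact permutation test was 0.0857, and without any one of the O/A libraries it was 0.0429. The log2 difference stayed at -0.16 to -0.15 without an ethanol library. Reads counted on the 44 genes named as BNIP3 pseudogenes summed to 4 to 14 per library, 0.228% to 0.882% of those of BNIP3, most of them on BNIP3P1 (1 to 9 reads). Reads from these copies that were counted on BNIP3 were not measured.

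**Figure D3:**
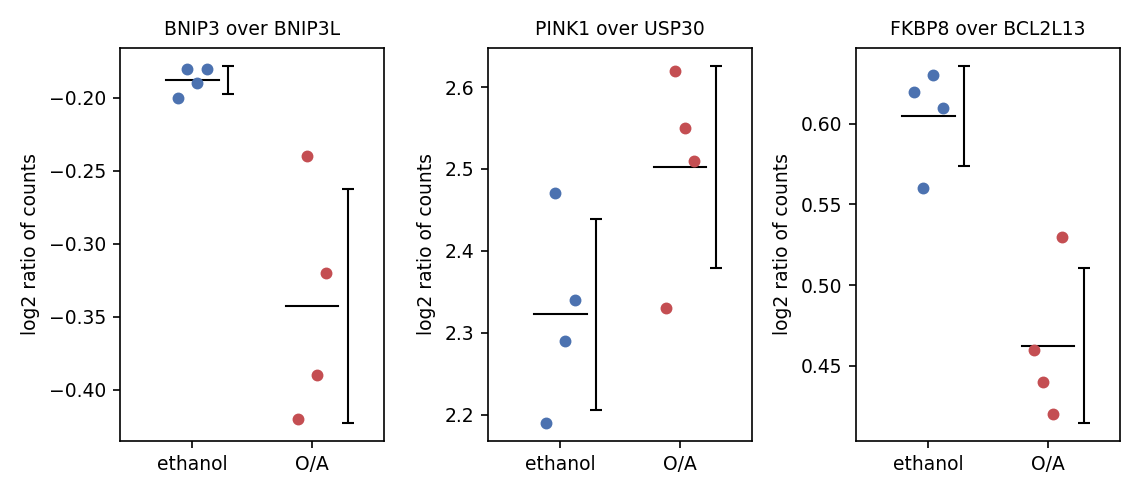
Log2 ratio of the read counts of 2 genes within each library, for BNIP3 over BNIP3L, PINK1 over USP30 and FKBP8 over BCL2L13, in ethanol (blue) and O/A (red), with lines at the mean and bars of 1 SD (n = 4). Vertical axes differ and do not start at 0. The 2 conditions do not overlap for BNIP3 over BNIP3L or FKBP8 over BCL2L13 and overlap for PINK1 over USP30.

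FKBP8 and BCL2L13 are receptors of the outer membrane. FKBP8 is a member of the FK506-binding family that also binds BCL2, and BCL2L13 is a BCL2-like protein that can stand in for the yeast receptor Atg32. FKBP8 (chromosome 19 from 18531751 to 18544077, reverse strand) had 130, 123, 134 and 124 CPM in ethanol and 125, 119, 120 and 124 CPM in O/A. BCL2L13 (chromosome 22 from 17628855 to 17730855, forward strand) had 84.2, 83.7, 86.7 and 81.4 CPM in ethanol and 91.5, 88.1, 89.1 and 86.1 CPM in O/A. Both genes overlapped between conditions on this scale, FKBP8 through O/A replicates 1 and 4 and BCL2L13 only through O/A replicate 4 and ethanol replicate 3. The log2 fold changes were -0.065 (adjusted p = 0.0855) for FKBP8 and 0.080 (adjusted p = 0.0512) for BCL2L13, neither past the threshold of the test. The scaling moved these results, since with library totals FKBP8 passed the adjusted p-value (-0.11, adjusted p = 0.00341), and with median-ratio scaling BCL2L13 did (0.087, adjusted p = 0.0342). Leaving out ethanol replicate 3 gave 0.10 (adjusted p = 0.0215) for BCL2L13, and leaving out O/A replicate 2 or 4 gave 0.093 (0.0408) and 0.10 (0.0331). On the deposited FPKM the conditions did not overlap for FKBP8.

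The ratio of these genes within a library separated the conditions. It was 1.54, 1.47, 1.55 and 1.53 reads of FKBP8 per read of BCL2L13 in ethanol, and 1.37, 1.35, 1.34 and 1.44 in O/A. The log2 ratio moved from 0.61 ± 0.0335 to 0.46 ± 0.0475 (SD, n = 4), a difference of -0.14 with p = 0.0286 in the exact permutation test and 0.0429 after adjustment over 3 ratios. Leaving out any one ethanol or O/A library gave the same adjusted p-values as for the paralogues, 0.0857 and 0.0429 by exact permutation. The log2 difference stayed at -0.16 to -0.14 without an ethanol library. A ratio shows that the genes differed unequally, not which of them did. How often ratios of other gene pairs separate the conditions was not measured, for this ratio or for that of the paralogues. Singly, 47.6% of all genes tested did not overlap between conditions in CPM.

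FUNDC1 and PHB2 showed no difference that exceeded the spread between libraries. FUNDC1, an outer-membrane receptor regulated by phosphorylation in hypoxia (chromosome X from 44523639 to 44542859, reverse strand), had 15.0 to 18.6 CPM in ethanol and 16.2 to 17.6 CPM in O/A. Its log2 fold change was 0.018 (95% interval -0.13 to 0.16, adjusted p = 0.859). PHB2, a prohibitin that scaffolds the inner membrane (chromosome 12 from 6965327 to 6970780, reverse strand), had 129 to 138 CPM in ethanol and 129 to 141 CPM in O/A, and its log2 fold change was -0.015 (95% interval -0.079 to 0.049, adjusted p = 0.723). The O/A range of FUNDC1 lay inside its ethanol range, and its values varied more in ethanol (coefficient of variation 9.23%) than in O/A (4.08%), against 5.71% from counting alone.

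By the adjusted p-value alone, 2 of the 9 genes passed (22.2%), PINK1 and BNIP3, beside 53.7% of all genes tested. The conditions did not overlap in CPM for the same 2 genes, beside 47.6% of all genes tested. Both shares are below those of all genes.

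Many genes had patterns like those of these 2 genes, as measured by the root-mean-square difference in log2 CPM over the 8 libraries after subtracting the mean in ethanol. For BNIP3 the nearest were PAFAH1B1 (0.0196), SLC35E1 (0.0202) and MED15 (0.0211), whose log2 fold changes were -0.13, -0.11 and -0.15, and 385 genes lay within 0.05. For PINK1 they were RALA (0.0146), OSBPL1A (0.0169) and COX4I1 (0.0201), with log2 fold changes of 0.12, 0.11 and 0.11, and 476 genes lay within 0.05.

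Genes that act with these 9 were described in 7 lists, of which 95 of 99 genes could be tested. Of these, 37 passed both thresholds (38.9%, beside the 34.7% of all genes tested), 23 higher and 14 lower in O/A, and their median log2 fold change was 0.025. The share that passed both thresholds ranged from 16.7% to 60.0% between lists. Whether any list differed from all genes tested was not tested.

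Adaptors and ATG8 proteins link ubiquitin and the receptors to the autophagosome. Of 10 tested, 6 rose by both thresholds (60.0%, beside 34.7% of all genes tested in either direction and 15.8% higher). All 10 passed the adjusted p-value with a positive log2 fold change, beside 53.7% of all genes tested in either direction. The median log2 fold change was 0.36. MAP1LC3B, the ATG8 protein LC3B, rose from 24.0 to 53.5 FPKM (log2 fold change 1.20, adjusted p = 1.11e-36), and SQSTM1, the adaptor p62, rose from 26.6 to 58.2 FPKM (1.18, adjusted p = 3.61e-37). GABARAPL1, another ATG8 protein, rose from 4.42 to 6.60 FPKM (0.63). The ubiquitin-binding adaptors CALCOCO2 (0.50), TAX1BP1 (0.40) and OPTN (0.32), named here after their values were seen, also passed both thresholds. The lowest values of the list were those of GABARAPL2 (0.18), GABARAP (0.15) and the adaptor NBR1 (0.13). GABARAP passed the adjusted p-value only narrowly (0.0439), and it did not under DESeq2 (0.0676), with library totals (0.16), on FPKM (0.252), with the filter at a mean FPKM of 5 (0.0955) or without ethanol replicate 2 (0.18), ethanol replicate 3 (0.0654), O/A replicate 1 (0.103) or O/A replicate 3 (0.191). NBR1 did not under quantile normalization (0.055) or on FPKM (0.0523 and 0.0527). MAP1LC3A, with 44 reads in all, and MAP1LC3C, with 1 read, were too low to be tested.

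The list of import and processing holds the import channels, proteases and chaperones that bring PINK1 into the mitochondrion and cleave it. Of its 15 genes tested, 1 rose and 3 fell (26.7% in all, beside 34.7% of all genes tested). The median log2 fold change was -0.042. OMA1, an inner-membrane protease that is activated by depolarization and can cleave PINK1, fell from 5.65 to 3.74 FPKM (-0.55, adjusted p = 6.75e-09). PMPCA, a subunit of the matrix processing peptidase, fell from 10.2 to 7.49 FPKM (-0.40), and TOMM70, an import receptor of the outer membrane, fell from 29.3 to 22.5 FPKM (-0.33). LONP1, a matrix protease, rose from 13.7 to 17.6 FPKM (0.41, adjusted p = 3.23e-14). TOMM20 (0.10) and PMPCB (0.089) followed LONP1 in the list and stayed within the fold change threshold. TOMM6 held no read in any library.

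Among ubiquitin ligases and their substrates, the median log2 fold change was 0.12, and 10 of 14 tested did not pass both thresholds. The other 4 rose (28.6%, beside 34.7% of all genes tested in either direction and 15.8% higher). Among them were SIAH1, from 2.81 to 4.04 FPKM (0.57, adjusted p = 1.72e-11), the outer-membrane ligase MARCHF5, from 16.0 to 19.5 FPKM (0.33), and ARIH1 (0.26), the last named after its value was seen. Under quantile normalization and with library totals, 2 genes of the list passed instead of 4. HUWE1 had a log2 fold change of 0.32 that did not pass the test (adjusted p = 0.0562). It passed both thresholds under DESeq2 (0.33, adjusted p = 0.0125) and without ethanol replicate 4 (0.43, adjusted p = 0.0106). On log2(FPKM + 0.1) and log2(FPKM + 1) it also passed, at 0.29 (adjusted p = 0.0345) and 0.27 (adjusted p = 0.0306). In the other alternatives it did not. The substrates MFN2 (-0.044), VDAC1 (-0.077) and VDAC3 (-0.11) had the lowest values and stayed within the threshold.

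Of 6 deubiquitinases other than USP30, 1 passed both thresholds (16.7%, beside 34.7% of all genes tested). It was USP35, which fell from 2.45 to 1.84 FPKM (-0.36, adjusted p = 2.03e-04). USP8, which also acts on endosomes, had a log2 fold change of 0.21. USP19 (0.075), USP33 (0.022), USP14 (0.0041) and USP15 (-0.0077) were nearer to 0.

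Other receptors and regulators of receptor mitophagy gave 3 genes that rose and 2 that fell of 17 tested, with a median of -0.029. Together these were 29.4% of the list, beside 34.7% of all genes tested. ULK1, the autophagy kinase that phosphorylates FUNDC1 and BNIP3L, rose from 3.48 to 7.36 FPKM (1.12, adjusted p = 1.94e-16). MCL1 (0.27), an antiapoptotic BCL2 protein, and CSNK2A1 (0.26), a subunit of the kinase CK2 that phosphorylates FUNDC1, passed both thresholds narrowly, and under quantile normalization they were at 0.13 and 0.16, within the fold change threshold. They were also within it on log2(FPKM + 0.1) (0.22 and 0.21), on log2(FPKM + 1) (0.22 and 0.19) and with library totals (0.22 and 0.21). CSNK2A1 was within it with the filter at a mean FPKM of 5 too (0.24). NLRX1, a mitochondrial receptor that binds LC3, fell from 2.28 to 1.26 FPKM (-0.80), and AMBRA1, which binds LC3 at mitochondria, fell by 0.48 on the log2 scale. ATAD3A, which takes part in the import of PINK1, was at -0.24, within the threshold, and at -0.26 and -0.28, past it, without O/A replicate 3 and without O/A replicate 4. It was also past the threshold with the filter at a mean FPKM of 5 (-0.26) and with library totals (-0.29). The same held on log2(FPKM + 0.1) (-0.29) and log2(FPKM + 1) (-0.27).

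The lists of regulators of transcription were examined because BNIP3 and BNIP3L are HIF-1 targets and PINK1 is known as a target of FOXO factors. Among 22 other HIF-1 targets, 4 rose and 7 fell, with a median of -0.053. VEGFA, the endothelial growth factor, rose from 6.17 to 39.8 FPKM (2.74), followed by NDRG1 (0.59) and P4HA1 (0.42), while EGLN3 (-1.59), ANKRD37 (-1.57) and ADM (-1.08) fell the most. The sequence ACGTG was found before 13 of the 20 of these targets that had a window, namely 2 of 2 that rose, 3 of 7 that fell and 8 of 11 that did not pass. A target counted where any of its windows held it, so these counts differ in unit from the genome share of single windows. Among 11 transcription factors, 5 rose and 1 fell (54.5% in all, beside 34.7% of all genes tested), with a median of 0.15. ATF4, the factor of the integrated stress response, rose from 92.8 to 262 FPKM (1.54), NFE2L2 (0.89) and the hypoxia factor EPAS1 (0.48) also rose, and FOXO1 fell by 0.28 on the log2 scale. Without ethanol replicate 4, O/A replicate 1 or O/A replicate 3, FOXO1 was at -0.25, -0.24 and -0.24, within the fold change threshold. Under quantile normalization FOXO1 was also within it, at -0.25. NRF1 (-0.15, adjusted p = 0.0981) and TFEB (-0.37, adjusted p = 0.116) did not pass the test, although TFEB did without ethanol replicate 2 (-0.49, adjusted p = 0.0288) or O/A replicate 1 (-0.50, adjusted p = 0.0427). Without O/A replicate 4, NRF1 was at -0.21 with an adjusted p-value of 0.0356, still within the fold change threshold.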

How the data were processed

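mRNA selected with oligo(dT) was sequenced from 8 libraries of N/TERT cells, 4 per condition, whose condition and replicate number come from the labels. Paired-end reads were aligned by the authors with HISAT2 2.0.1 to the GRCh38.p13 build, and the authors made the deposited counts, which are not normalized, on Ensembl genes with HTSeq 0.6.1 (versions from the submitters' processing notes). The Ensembl release and the strand setting are not given in the sources used here. FPKM values, also deposited by the authors, match, within 0.005, the count divided by exonic size and library total. A table of the authors' own DESeq2 comparison, with fold changes and p-values, was not used.

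The robust quasi-likelihood test of edgeR 4.0.16 (R 4.3.3) was run on TMM-scaled counts. A gene was tested where 4 or more libraries held 10 or more counts, which 14893 genes met, and p-values were adjusted over these by Benjamini-Hochberg. Thresholds were an adjusted p-value of 0.05 and an absolute log2 fold change of 0.25. Single genes and 3 ratios were also compared by two-sided exact permutation tests of 4 against 4 libraries. The 9 genes and the 7 lists were chosen with earlier results of these data known. The genes named are the 9 members, the 3 highest and 3 lowest tested genes of each list, list genes too low to test, genes that overlap a member or are its named pseudogenes, and the 3 genes nearest in pattern to each of PINK1 and BNIP3. Some of these genes are not reported here. Promoter sequences are from RefSeq on GRCh38.p14 and were matched by symbol for 6 of 9 members.

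Alternatives were DESeq2 1.42.0, limma 3.58.1 on log2(FPKM + 0.1) and log2(FPKM + 1), median-ratio scaling, quantile normalization, no filter, a filter at a mean FPKM of 5, other fold change thresholds, a block for the replicate number, leaving out single libraries and, added after seeing the data, library totals without TMM factors. Same-numbered libraries were not taken as pairs, since correlations of their deviations from the group means lay between -0.0226 and 0.0675. On simulated data with 200 of 14893 genes changed, edgeR recovered 172 with 4 false calls (71 of 93 at a log2 change of 0.5 and 101 of 107 at 1).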

Additional observations from a re-analysis of the deposited data

Results flagged for a closer look

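In a group of 4 libraries, 1 value stood apart from the others. The adaptor NBR1 was at 162 CPM (scaled by TMM) in O/A replicate 4 and at 170 to 171 CPM in the other O/A libraries, a gap of 0.852 of the range of the group, above Dixon's critical value at 95%. It was the only one of 108 groups examined (the 9 genes, the 3 ratios and 42 named genes of the lists, in each condition), where chance alone gives about 5.4.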

How the results depend on the processing

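None of the 9 genes passed both thresholds under any alternative that keeps the fold change threshold at 0.25 or raises it to 1. With no fold change threshold, 2 of them passed (PINK1 and BNIP3), as did 63 list genes and 7999 of all genes tested (3868 higher, 4131 lower). With a threshold of 1, 8 list genes and 797 of all genes passed (382 higher, 415 lower), and with the filter at a mean FPKM of 5, 22 list genes and 2183 of all genes (1097 higher, 1086 lower). DESeq2 called 4859 genes, 4787 of them shared with the 5165 of edgeR. A replicate block in edgeR's quasi-likelihood test gave 5160 calls, of which 5117 were also made without the block, and 0 of the 9 genes, 4 of which had an unadjusted p-value under 0.05 without it. Same-numbered libraries did not deviate together, so the block rests on a shared number alone.

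The adjusted p-value of PINK1 stayed past the threshold in 13 of 17 alternatives (range 0.00899 to 0.136), and lost it under quantile normalization (0.092, adjusted p = 0.0582), on log2(FPKM + 0.1) (0.073, 0.0906), on log2(FPKM + 1) (0.067, 0.089) and with library totals (0.074, 0.136). BNIP3 passed it in 17 of 17, FKBP8 in 5 and BCL2L13 in 4. Of 152 values of the 9 genes under alternatives, none passed both thresholds at 0.25. With single libraries left out, the log2 difference of the ratio ranged from -0.19 to -0.13 for BNIP3 over BNIP3L, from -0.17 to -0.13 for FKBP8 over BCL2L13 and from 0.14 to 0.24 for PINK1 over USP30. The first 2 lost the threshold without any one ethanol library (adjusted p = 0.0857, exact permutation test) and kept it without any one O/A library. Leaving out a library leaves fewer relabellings, so the p-value of this test moves in coarser steps. Without an ethanol library the log2 differences were -0.16 to -0.15 and -0.16 to -0.14, near the -0.15 and -0.14 of all libraries.

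Genes near 0 changed sign. BNIP3L was -0.012 under quantile normalization, -0.019 and -0.018 on FPKM with 0.1 and 1 added, and -0.018 with library totals. In the same order of the last 3 settings FUNDC1 was -0.024, -0.022 and -0.028. USP30 was 0.032 and USP33 -0.018 under quantile normalization, and USP33 was -0.023, -0.021 and -0.024 in those 3 settings. USP14 was -0.071 under quantile normalization, -0.0013 with no filter, -0.012 with the filter at a mean FPKM of 5, and -0.041, -0.040 and -0.041 in those 3 settings. With single libraries left out, the log2 fold changes ranged from -0.019 to 0.080 for FUNDC1, from -0.034 to 0.0082 for PHB2, from -0.13 to 0.0020 for USP30 and from -0.022 to 0.014 for USP15.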
